A study of Mus musculus with 54 samples.

Results

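The genes of cholesterol synthesis and their SREBP2-linked regulators and transport proteins were followed in the livers and hearts of mice carrying point mutations in the mitochondrial ribosomal protein MRPS12. The set was chosen by gene name and held 28 genes among the 54356 genes in the expression tables. All 28 were found in both tissues and all passed the minimum mean of 10 normalized counts. RNA sequencing covered 9 livers and 9 hearts, from 3 mice of each genotype in each tissue, and the labels do not tie a heart to a liver of the same mouse. Each value is from a pooled column taken as 1 mouse, so n = 3 rests on that reading. Mrps12+/+ mice carried the wild-type gene, Mrps12ep/ep mice were homozygous for an error-prone mutation that lowers the accuracy of mitochondrial protein synthesis, and Mrps12ha/ha mice were homozygous for a hyper-accurate mutation. All were C57BL/6 mice, 20 weeks old and matched for age and litter, and all were fed a high-fat diet with 42% of its energy from fat. The mutations were inherited and carried in every tissue. Genotypes are written below as +/+, ep/ep and ha/ha.

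Cells make cholesterol from acetyl-CoA through mevalonate, the isoprenoid diphosphates, squalene and lanosterol, and the liver is a main site of this synthesis. Transcription of the pathway is driven by SREBP2, a membrane-bound factor that its escort SCAP carries from the endoplasmic reticulum to the Golgi when sterols are low, where it is cut to release the active part. When sterols are plentiful the INSIG proteins hold SCAP and SREBP2 in the endoplasmic reticulum. SREBP binds sterol regulatory elements in promoters, often beside sites for NF-Y, which binds CCAAT.

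The promoters of 4 members are shown because these genes stood at different places in the results described below. Idi1 had the smallest adjusted p of all members in ep/ep livers, and Hmgcs1 held the longest of the motif matches given below. Insig1 is a textbook SREBP2 target whose counts were not lower in ep/ep livers, and Aacs had the largest positive log2 fold change of the members in ha/ha livers. Each sequence is from RefSeq on GRCm38.p6, is read on the plus strand in the direction of the gene, and runs from 250 bases before to 50 bases after the start that RefSeq gives. Capitals mark CCAAT and CACNCCAC, the latter a short form of the sterol regulatory element, on either strand. The windows are chr13:119690101-119690400 for Hmgcs1, chr13:8885356-8885655 for Idi1, chr5:28071162-28071461 for Insig1 and chr5:125475623-125475922 for Aacs, and each window also holds the start of its gene in the GENCODE annotation, which is not the same base.
Hmgcs1: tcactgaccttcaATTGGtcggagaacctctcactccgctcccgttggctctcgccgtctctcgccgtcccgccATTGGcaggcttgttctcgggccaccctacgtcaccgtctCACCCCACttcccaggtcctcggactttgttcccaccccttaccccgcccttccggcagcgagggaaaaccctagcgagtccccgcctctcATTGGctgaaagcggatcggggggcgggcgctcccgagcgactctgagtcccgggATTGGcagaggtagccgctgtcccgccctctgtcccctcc
Idi1: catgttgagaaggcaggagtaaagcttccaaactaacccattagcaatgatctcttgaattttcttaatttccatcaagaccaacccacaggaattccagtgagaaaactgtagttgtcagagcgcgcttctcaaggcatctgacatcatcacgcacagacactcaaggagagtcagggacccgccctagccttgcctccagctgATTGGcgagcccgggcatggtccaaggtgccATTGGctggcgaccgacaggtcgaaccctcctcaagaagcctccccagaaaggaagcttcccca
Insig1: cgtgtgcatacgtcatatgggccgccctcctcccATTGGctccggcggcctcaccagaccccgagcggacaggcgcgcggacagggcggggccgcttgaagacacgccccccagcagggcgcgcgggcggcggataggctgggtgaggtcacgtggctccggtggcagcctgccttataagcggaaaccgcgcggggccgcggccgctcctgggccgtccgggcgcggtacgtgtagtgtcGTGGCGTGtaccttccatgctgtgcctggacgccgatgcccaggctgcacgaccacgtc
Aacs: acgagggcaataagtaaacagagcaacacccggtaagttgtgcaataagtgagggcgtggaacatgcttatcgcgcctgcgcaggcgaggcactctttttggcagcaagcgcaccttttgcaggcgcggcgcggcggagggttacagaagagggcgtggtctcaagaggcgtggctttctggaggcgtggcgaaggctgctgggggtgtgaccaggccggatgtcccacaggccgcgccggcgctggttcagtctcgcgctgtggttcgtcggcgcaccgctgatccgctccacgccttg

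RefSeq promoters were matched for 23 of the 28 members, and Fdps, Fdft1, Sqle, Stard4 and Npc1 were not matched. CCAAT, searched on both strands, was present for 20 of the 23 members, and 41.1% of the 27025 genes with a promoter held it in at least 1 promoter. The Hmgcs1 window held 4 copies, Idi1 held 2, Insig1 held 1 and Aacs held none. CACNCCAC was present for Acat2, Hmgcs1 and Insig1, 3 of the 23, against 7.12% of all genes. Of these, Acat2 and Hmgcs1 held the form CACCCCAC, which 3.30% of all genes held, and Hmgcs1 alone held TCACNCCAC, which 1.44% held and which contains the shorter letters. The E-box CACGTG was present for Dhcr7, Hsd17b7, Insig1, Sc5d and Scap, 5 of the 23, against 8.09% of all genes. These matches describe letters in a window of 300 bases and are not evidence of binding.

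Sequencing depth recovered from the tables ranged from 21238039 to 81518262 reads in the livers and from 11202866 to 51480271 in the hearts, where ha/ha mouse 2 was the shallowest. Mrps12 itself did not check the labels, because a gene count does not read a point mutation, and its counts were 1507.7 to 1914.5 over the livers and 1027.6 to 1396.9 over the hearts. The 12 hepatocyte markers were all detected in the livers and summed to 6042703.4 to 6457159.5 in +/+, 7053083.1 to 7445212.3 in ep/ep and 6806221.7 to 7396523.7 in ha/ha, so that both mutant groups lay above +/+. The 8 cardiomyocyte markers were all detected in the hearts and summed to 2328522.3 to 2670679.5 in +/+, 2194287.5 to 2660611.0 in ep/ep and 2697834.4 to 3483892.5 in ha/ha, which lay above both other groups.

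Several libraries stood apart. The liver of +/+ mouse 3 had 2876271.5 counts over 10 acute phase genes, against 436355.9 to 509674.7 in the other 8 livers. That liver also had 12816.0 counts over 8 cholangiocyte markers, against 2036.0 to 3433.5 in the others, and 63929.3 over 8 adipocyte markers, against 165372.6 to 235664.4. The livers of +/+ mice 1 and 2 had 21454.2 and 27392.9 counts over 10 skeletal muscle markers, while the other 7 had 26.7 to 153.7. Mesothelium markers summed to 6880.2 to 12719.0 in +/+ livers and 5785.9 to 6623.1 in ha/ha livers, and endothelium markers to 6036.2 to 10480.4 and 10631.2 to 11995.4. In the hearts the erythroid markers reached 1412859.3 in ha/ha mouse 3, and 91928.8 to 464630.1 in the others. The part of these differences in the results was not tested, and the median of the members is given below without the libraries in question. In whole tissue, fewer cells of a type and less RNA per cell cannot be told apart. A marker sum holds RNA of the listed genes from any cell that expresses them, so it does not count cells of the named type. The liver sums of the adipocyte and mesothelium lists are therefore not read as amounts of those cells.

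The mutant livers were compared with +/+ to ask how each mutation was accompanied by differences in the pathway. In ep/ep livers the counts of 20 of the 28 members were lower in every mouse than in any +/+ mouse, and no member was higher in every mouse. Over all 15314 genes tested, 6.28% were lower in every ep/ep mouse. These 20 were 17 of the 20 enzymes, the factor gene Srebf2, and the sterol-binding proteins Stard4 and Tmem97. The median log2 fold change was −1.09 over the members and −0.01 over all genes tested, and 23 members had a negative value. No member passed limma with Benjamini-Hochberg adjustment over all genes at 0.05, and the smallest adjusted p was 0.066 for Idi1. The background was as low, with 0.00653% of genes passing, which is 1 gene. At an unadjusted p under 0.05 limma held 20 members, all lower, beside 9.74% of all genes, and limma-voom on recovered reads held 20 with none past the adjusted threshold. The count of members past the adjusted threshold depended on the +/+ mice. It was 10 without +/+ mouse 1, when 0.17% of genes passed, and 7 without +/+ mouse 3, when 0.444% passed, and all of these were lower. The median of all members was −1.22, −1.11 and −0.87 without +/+ mouse 1, 2 and 3.

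**Figure D1:**
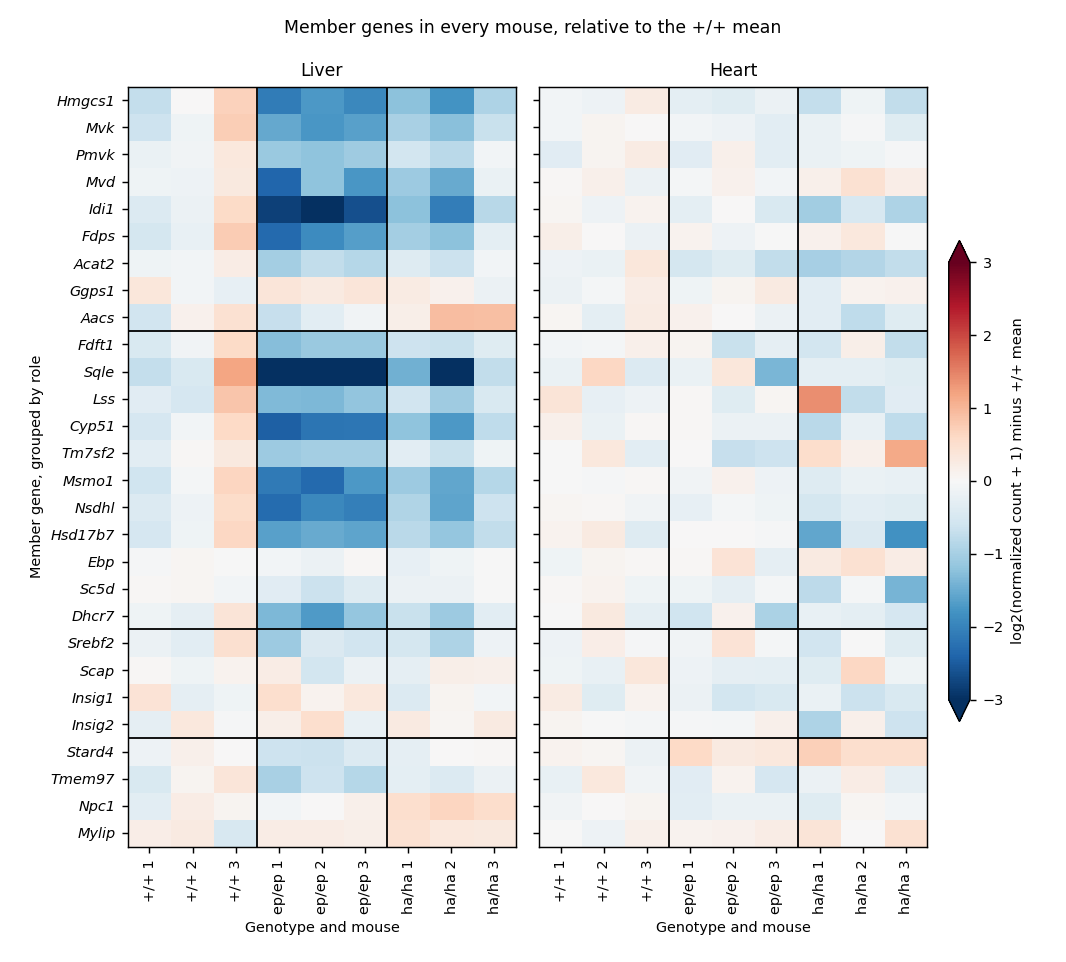
Colour shows log2(normalized count + 1) minus the +/+ mean of that gene and tissue, for 28 members (vertical axis, lines divide the 4 role groups) in 9 livers and 9 hearts (horizontal axis, 3 mice a genotype); the scale ends at −3 and 3, and the few values beyond it, of Sqle and Idi1 in mutant livers, take the end colour. The 3 ep/ep livers are blue in most enzyme rows, the ha/ha livers are paler, and the hearts hold few strong colours outside ha/ha.

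The early steps turn acetyl-CoA into mevalonate and then into isoprenoid diphosphates. Idi1 encodes the isomerase that interconverts the 5-carbon isoprenoid units, and its normalized counts were 11105.2, 13110.2 and 21913.6 in the +/+ livers, 2096.2, 1837.3 and 2365.9 in ep/ep, and 6247.6, 3473.4 and 8214.9 in ha/ha. No groups overlapped, and ha/ha lay between the others. The log2 fold change was −2.82 ± 0.32 (SE, n = 3 a group) for ep/ep against +/+, a 7.05-fold lower level with adjusted p = 0.066, and −1.39 ± 0.32 for ha/ha with adjusted p = 0.134. Over the alternative settings the first adjusted p ranged from 0.0129 to 0.358, and it passed in 4 of them. Idi2, the gene for the second isomerase, was listed at 0 in every mouse.

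Hmgcs1, the synthase that makes HMG-CoA, had 15578.6, 25434.4 and 41326.0 counts in +/+, 5928.1, 7664.1 and 6631.7 in ep/ep, and 10838.7, 7318.8 and 13445.8 in ha/ha. Every mutant liver lay below every +/+ liver, while ep/ep and ha/ha overlapped. The log2 fold change was −1.92 ± 0.33 in ep/ep and −1.31 ± 0.33 in ha/ha, with adjusted p = 0.178 and 0.152. Fdps, which joins isoprenoid units into farnesyl diphosphate, had 13898.1, 17293.2 and 34029.4 counts in +/+, 3969.9, 5489.4 and 6400.9 in ep/ep, and 9893.8, 8564.4 and 16398.7 in ha/ha. Its ep/ep values lay below both other groups, and ha/ha overlapped +/+. The log2 fold change of Fdps was −1.96 ± 0.35 in ep/ep and −0.85 ± 0.35 in ha/ha.

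Mvk, Pmvk and Mvd encode the kinases and the decarboxylase that carry mevalonate to isopentenyl diphosphate. Mvk had 872.4, 1232.3 and 2227.3 counts in +/+, 463.3, 401.1 and 435.0 in ep/ep, and 683.1, 562.4 and 837.0 in ha/ha, with no overlap among the groups. Mvd had 1435.6, 1392.4 and 1895.5 counts in +/+, 301.0, 670.0 and 463.9 in ep/ep, and 733.1, 546.7 and 1366.2 in ha/ha. Both mutant groups of Mvd lay below +/+ and overlapped each other. Pmvk was 2443.8 to 3499.1 in +/+ and 1217.8 to 1338.3 in ep/ep, and its ha/ha values of 1614.2 to 2649.2 overlapped +/+. Their log2 fold changes in ep/ep were −1.63 for Mvk, −1.14 for Pmvk and −1.78 for Mvd.

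Acat2, a thiolase that joins acetyl-CoA units, had 4552.5, 4720.7 and 5841.4 counts in +/+, 2471.0, 3020.4 and 2754.3 in ep/ep, and 3853.3, 3184.0 and 4702.7 in ha/ha. Its log2 fold change was −0.87 ± 0.16 in ep/ep. Acat3, a close copy of Acat2 whose reads could be split with it, lay the other way, at 10291.2 to 14226.9 in +/+ and 14825.8 to 16299.6 in ep/ep, so the Acat2 value is uncertain. Ggps1, which makes geranylgeranyl diphosphate for protein prenylation, was not lower, with 575.1, 424.5 and 378.3 counts in +/+ and 580.1, 546.4 and 581.5 in ep/ep. Aacs activates acetoacetate, a ketone body, for lipid synthesis. It had 2554.3, 4162.8 and 5272.4 counts in +/+, 2356.5, 3073.9 and 3537.8 in ep/ep, and 4296.0, 7289.5 and 7164.8 in ha/ha. Every ha/ha value of Aacs was above every ep/ep value, but both groups overlapped +/+, and the log2 fold change against +/+ was 0.67 ± 0.29 in ha/ha (adjusted p = 0.345) and −0.38 ± 0.29 in ep/ep.

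The later steps build squalene, close it to lanosterol and trim that to cholesterol. Sqle, squalene epoxidase, had the largest difference among the members, with 2470.4, 2957.9 and 9252.5 counts in +/+, 92.5, 109.9 and 204.2 in ep/ep, and 1494.7, 304.4 and 2453.8 in ha/ha. The highest ep/ep value was below the lowest ha/ha value, and the highest ha/ha value was just below the lowest +/+ value. Sqle was 31.7-fold lower in ep/ep than in +/+ (log2 −4.99 ± 0.75, adjusted p = 0.11) and 3.92-fold lower in ha/ha (log2 −1.97 ± 0.75, adjusted p = 0.295). Its ha/ha values spread widely, with an SD of 1.57 on the log2 scale.

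Cyp51, the lanosterol demethylase, had 6902.5, 9263.6 and 14843.6 counts in +/+, 1796.0, 2135.8 and 2179.5 in ep/ep, and 4260.3, 2972.4 and 5796.5 in ha/ha. Msmo1, which oxidises the methyl groups at carbon 4 of the sterol, had 7766.6, 11326.4 and 18271.8 in +/+, 2688.1, 2336.7 and 3531.1 in ep/ep, and 5536.0, 3977.1 and 6469.2 in ha/ha. Nsdhl, which works in the same demethylation, had 4229.3, 5067.6 and 8306.0 in +/+, 1140.6, 1460.7 and 1356.1 in ep/ep, and 3022.6, 1890.6 and 3644.3 in ha/ha. For all 3 genes the groups did not overlap and ha/ha lay in the middle. The log2 fold changes in ep/ep were −2.28 ± 0.29 for Cyp51, −2.06 ± 0.30 for Msmo1 and −2.10 ± 0.28 for Nsdhl, with adjusted p of 0.0904, 0.11 and 0.0991. In ha/ha they were −1.23, −1.17 and −1.03.

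Hsd17b7, a sterol ketone reductase, had 2590.7, 3350.9 and 5596.0 counts in +/+, 1183.7, 1282.2 and 1225.1 in ep/ep, and 2096.8, 1642.9 and 2171.0 in ha/ha. Dhcr7, which makes cholesterol from 7-dehydrocholesterol, had 5730.7, 5192.2 and 8155.1 in +/+, 2460.0, 1910.3 and 2800.9 in ep/ep, and 3917.5, 2937.6 and 4980.3 in ha/ha. Neither gene showed overlap among the 3 groups. Fdft1 (squalene synthase), Lss (lanosterol synthase) and Tm7sf2 (a sterol reductase) were lower in every ep/ep liver than in any other liver, while their ha/ha values overlapped +/+. Their log2 fold changes in ep/ep were −1.16, −1.29 and −1.04. Sc5d and Ebp had the smallest differences of these 11 enzymes in ep/ep. Sc5d, the desaturase before Dhcr7, was 24266.5 to 26859.2 in +/+ and 16438.4 to 20482.7 in ep/ep, a log2 fold change of −0.46 ± 0.11 with adjusted p = 0.352. Ebp, a sterol isomerase, had 10411.9, 11235.8 and 10587.1 counts in +/+ and 10079.9, 9479.7 and 11017.3 in ep/ep, and these overlapped.

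The 4 genes that control SREBP2 had a median log2 fold change of −0.01 in ep/ep livers, against −1.48 for the 20 enzymes. Srebf2, which encodes SREBP2 itself, had 2910.5, 2663.6 and 4631.5 counts in +/+, 1557.7, 2460.3 and 2210.6 in ep/ep, and 2306.3, 1745.2 and 2970.5 in ha/ha. Its ep/ep values lay below +/+, with a log2 fold change of −0.69 ± 0.26 and adjusted p = 0.470. Insig1 had 18916.6, 11729.1 and 12896.8 counts in +/+, 20004.5, 15256.0 and 17791.0 in ep/ep, and 10686.4, 14963.9 and 13442.7 in ha/ha. The ep/ep values of Insig1 were above every ha/ha value and overlapped +/+, so that this SREBP2 target did not share the low ep/ep counts of the enzymes. Its log2 fold change against +/+ was 0.31 ± 0.20 in ep/ep, and leaving out each mouse or changing a setting kept it between 0.17 and 0.52. Insig2 and Scap overlapped among all 3 groups, with log2 fold changes of 0.15 and −0.17 in ep/ep and 0.20 and 0.02 in ha/ha.

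Among the transport genes, Stard4, which moves cholesterol between membranes, had 3359.6, 4131.3 and 3743.7 counts in +/+, 2413.7, 2390.2 and 2820.9 in ep/ep, and 3113.1, 3783.3 and 3826.2 in ha/ha. Tmem97, a sterol-binding membrane protein, was 2752.3 to 4832.9 in +/+, 1930.1 to 2432.1 in ep/ep and 2830.5 to 3353.1 in ha/ha. Both were lower in every ep/ep liver than in any other liver, and their ha/ha values overlapped +/+. Npc1, which exports cholesterol from lysosomes, had 4169.1, 6109.1 and 5548.7 counts in +/+, 4958.4, 5211.1 and 5834.9 in ep/ep, and 7342.4, 8183.6 and 7478.8 in ha/ha. The ha/ha livers held more Npc1 than any other liver, with a log2 fold change of 0.56 ± 0.14 against +/+ and adjusted p = 0.152. Mylip encodes a ubiquitin ligase for lipoprotein receptors that is driven by the sterol sensor LXR. It was 429.6 to 717.2 in +/+, 676.9 to 699.3 in ep/ep and 725.7 to 814.0 in ha/ha, where every value was above the other groups.

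**Figure D2:**
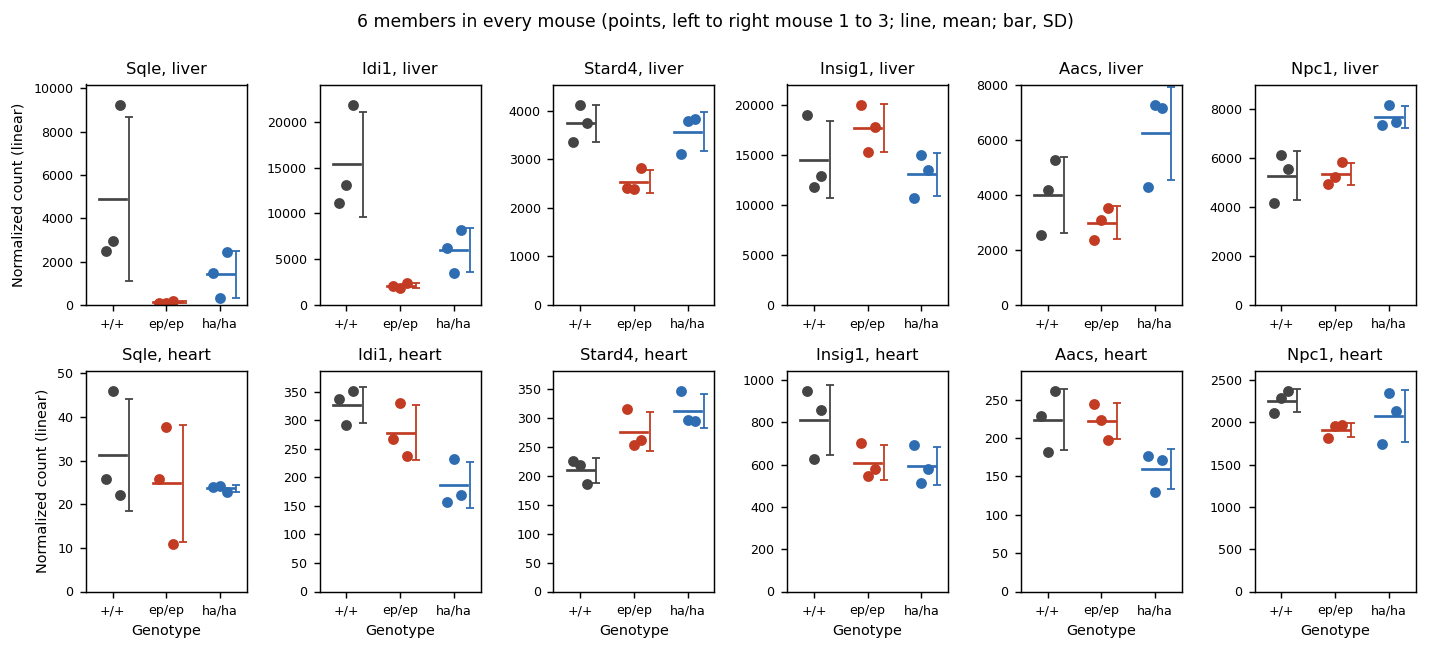
Normalized counts (vertical axis, linear from 0) of 6 members by genotype (horizontal axis) in liver (upper row) and heart (lower row); points are mice 1 to 3 from left to right, lines are means and bars are SD. Sqle and Idi1 are lowest in the ep/ep livers, and Stard4 is low there and high in ep/ep and ha/ha hearts. Insig1 is not low in ep/ep livers. Npc1 is higher in every ha/ha liver than in any other liver, and Aacs has its highest mean in ha/ha livers but overlaps +/+.

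In ha/ha livers 22 of the 28 members had a negative log2 fold change against +/+, with a median of −0.50 against −0.02 over all genes. Every ha/ha mouse was below every +/+ mouse for 10 members, beside 9.81% of all genes, and all 10 were enzymes. Npc1 and Mylip were the 2 members higher in every ha/ha mouse, beside 10% of all genes. No member passed limma after adjustment, when 0.00653% of genes did. At an unadjusted p under 0.05 limma held 16 members, 14 lower and 2 higher, beside 14.1% of all genes, and limma-voom held 15 with none past the adjusted threshold. The 2 higher members were Aacs and Npc1. The median was −0.60, −0.56 and −0.27 without +/+ mouse 1, 2 and 3, and −0.33 without ha/ha mouse 2.

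The 2 mutations were also compared with each other. In ha/ha livers 25 of the 28 members had a higher value than in ep/ep, with a median log2 difference of 0.62 against −0.002 over all genes. With each mouse left out the median of the members lay between 0.48 and 0.79. Past the adjusted threshold were 0.00653% of all genes, none of them a member. Every ha/ha mouse was above every ep/ep mouse for 20 members, beside 8.82% of all genes. Unadjusted p was under 0.05 for 19 members by limma, 18 higher and 1 lower, beside 8.62% of all genes, and for 18 by limma-voom, with none past the adjusted threshold. The largest difference was Sqle at 3.01 ± 0.75 (SE), followed by Idi1 at 1.43 ± 0.32, both on the log2 scale with adjusted p = 0.417. The lower one was Insig1 at −0.45 ± 0.20. Group means stood in the order +/+, ha/ha, ep/ep for 20 members, and 17.5% of all genes tested in the liver had that order.

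The members varied more among +/+ livers than most genes did. The SD of log2 counts over the 3 +/+ livers had a median of 0.41 over the members and 0.26 over all genes, while in ep/ep it was 0.17 and 0.21 and in ha/ha 0.28 and 0.17. Mouse 3, the liver with the high acute phase genes, was the highest +/+ mouse for 20 members, and 35.6% of all genes were highest there. Mouse 1 was the lowest +/+ mouse for 19 members, against 35.0% of all genes. In ha/ha, mouse 2 was lowest for 20 members, against 34.4% of all genes, and mouse 3 was highest for 21, against 29.6%. Averaged over the 20 enzymes, log2 counts relative to the +/+ mean were −0.35, −0.12 and 0.47 in the +/+ livers, −1.65, −1.54 and −1.40 in ep/ep, and −0.70, −1.09 and −0.37 in ha/ha. The ep/ep livers lay together below the rest, and the highest ha/ha liver lay just under the lowest +/+ liver.

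**Figure D3:**
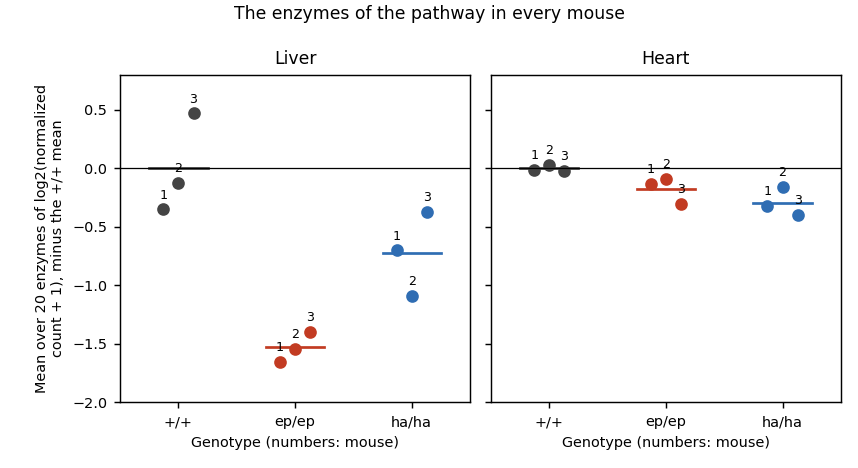
Mean over the 20 enzymes of log2(normalized count + 1) minus the +/+ mean (vertical axis) for each mouse by genotype (horizontal axis), liver left and heart right; numbers are mice and lines are group means. The ep/ep livers lie between −1.65 and −1.40, below all others, and the 9 hearts lie between −0.40 and 0.03.

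The hearts of the same genotypes were measured in the same way. As a share of each column's total, and with no test because the tables were normalized separately, 26 of the 28 members were higher in every +/+ liver than in every +/+ heart. The share of all genes with this order, and their median ratio, were not computed. The count and the ratios below therefore describe the members and do not set them apart from other genes. The exceptions were Ggps1 and Mylip, at 0.288 and 0.352 times the heart level. The median ratio of liver to heart was 11.6 and the largest was 98.2 for Sqle, which had 22.0 to 45.9 normalized counts in the +/+ hearts, so the hearts give little depth for that gene.

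In ep/ep hearts 22 members had a negative log2 fold change, with a median of −0.15 against −0.01 over all 16057 genes tested. Only Hmgcs1, Acat2 and Npc1 were lower in every ep/ep heart than in any +/+ heart, 3 of the 28, beside 3.64% of all genes. Stard4 was the 1 member higher in every ep/ep heart, beside 4.4% of all genes, with 224.8, 218.9 and 184.9 counts in +/+ and 315.0, 252.3 and 261.5 in ep/ep, a log2 fold change of 0.40 ± 0.16 and adjusted p = 1.0. No gene passed limma after adjustment, a share of 0%. Unadjusted p was under 0.05 for 2 members, Acat2 and Stard4, beside 1.69% of all genes, and limma-voom held 3 members at that level and none after adjustment.

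In ha/ha hearts 20 members had a negative log2 fold change and 8 a positive one, with a median of −0.29 against −0.02 over all genes. Every ha/ha heart was below every +/+ heart for 7 members, beside 10% of all genes, and above for Mvd, Ebp and Stard4, beside 11.1% of all genes. No member passed limma after adjustment, when 0.0311% of genes did. At an unadjusted p under 0.05 limma held 10 members, beside 19.7% of all genes, and limma-voom held 11 with none past the adjusted threshold. The count past the adjusted threshold changed with ha/ha mouse 2, the shallowest heart library, and the part of its depth was not tested. Without that mouse 11 members passed after adjustment, 9 lower and 2 higher, but so did 27% of all genes. Leaving out each heart in turn moved the median of the members between −0.32, without ha/ha mouse 2, and −0.17, without +/+ mouse 2, and it was −0.22 without ha/ha mouse 1 or 3. Sums of some markers of other cell types were lower in every ha/ha heart than in any +/+ heart. Skeletal muscle markers summed to 3690.5 to 3803.0 in ha/ha and 7824.7 to 38604.5 in +/+, mesothelium markers to 344.4 to 565.0 and 948.2 to 2021.1, and fibroblast markers to 41070.2 to 42054.0 and 43546.5 to 56727.8. Adipocyte markers summed to 162.4 to 691.6 in ha/ha and 822.4 to 19885.6 in +/+. Atrial markers overlapped, at 6173.1 to 12692.2 in ha/ha, 9446.5 to 174148.1 in +/+ and 2992.7 to 404705.7 in ep/ep. Their part in the result was not tested.

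Hsd17b7 had the largest heart difference, with 629.5, 706.9 and 445.3 counts in +/+, 589.4, 588.6 and 568.5 in ep/ep, and 197.0, 428.9 and 164.6 in ha/ha. The ha/ha hearts were below both other groups, with mouse 2 nearest to them. Its log2 fold change against +/+ was −1.27 ± 0.32 (adjusted p = 0.191), and −1.69 ± 0.19 (adjusted p = 0.00271) without ha/ha mouse 2, the smallest of its alternatives, which reached 0.540. Idi1 had 337.6, 290.7 and 350.9 counts in +/+ hearts, 267.5, 330.5 and 237.0 in ep/ep, and 156.5, 232.5 and 169.4 in ha/ha, a log2 fold change of −0.82 ± 0.20 in ha/ha. Acat2 had 192.0, 185.2 and 270.4 in +/+, 147.6, 164.7 and 128.0 in ep/ep, and 106.8, 114.8 and 126.6 in ha/ha. No groups overlapped for Acat2, and its log2 fold change in ha/ha was −0.87 ± 0.20 with adjusted p = 0.186. Cyp51, Msmo1, Nsdhl and Aacs were also lower in every ha/ha heart than in any other heart.

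For some members ha/ha mouse 2 stood apart from the other ha/ha hearts, as Sc5d and Insig2 show. Sc5d had 942.9, 987.2 and 842.7 counts in +/+ hearts and 532.0, 887.9 and 348.5 in ha/ha, and Insig2 had 1650.8, 1546.1 and 1489.2 in +/+ and 817.3, 1730.5 and 1014.5 in ha/ha. In both, mouse 2 lay within or above the +/+ range and the other 2 ha/ha hearts lay below it. Hmgcs1, Fdft1, Mvk and Srebf2 had the same order. Hmgcs1, for example, had 1047.4, 1549.3 and 1030.4 counts in ha/ha and 1530.5 to 2023.2 in +/+. Without mouse 2 the log2 fold change of Sc5d went from −0.75 to −1.10 and that of Insig2 from −0.47 to −0.78. Tm7sf2 lay the other way, with 157.6, 196.4 and 127.7 counts in +/+, 159.5, 97.4 and 101.7 in ep/ep, and 228.3, 175.2 and 346.5 in ha/ha, above every ep/ep heart. Lss had 382.9 counts in ha/ha mouse 1 and 87.6 to 192.0 in the other 8 hearts. Between ha/ha and ep/ep hearts the median log2 difference was −0.02, the same as over all genes, or between −0.08 and 0.06 with each mouse left out. No member passed limma after adjustment there, when 0.0249% of genes did. Unadjusted p was under 0.05 for 5 members there, beside 17.9% of all genes, and for 7 by limma-voom, with none past the adjusted threshold.

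**Figure D4:**
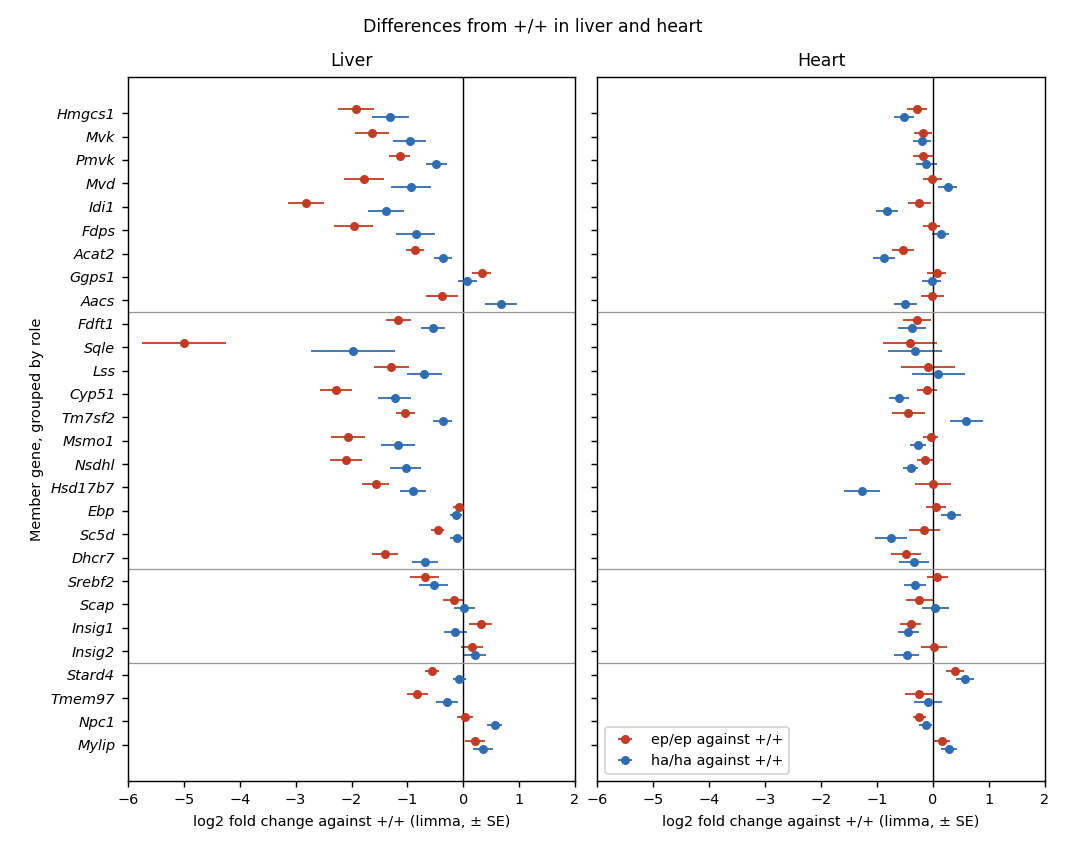
Log2 fold change against +/+ with its SE from limma (horizontal axis) for 28 members (vertical axis) in liver and heart, ep/ep in red and ha/ha in blue, 3 mice a group. In the liver the ep/ep points of most enzymes lie left of the ha/ha points, with Sqle at −4.99, and in the heart the ep/ep points lie between −0.54 and 0.40.

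The effects were then compared between the tissues in a joint fit of 14070 genes, with livers and hearts taken as separate samples because the labels do not pair them. The ep/ep effect was more negative in liver than in heart for 22 members, with a median difference of −0.90 against −0.008 over all genes. With each mouse left out the median of the members lay between −1.01 and −0.66. No member passed after adjustment, when 0.00711% of genes did. Unadjusted p was under 0.05 for 16 members, 15 of them lower in liver, beside 5.57% of all genes. The smallest adjusted p was 0.0656, for Idi1, with a log2 difference of −2.58 ± 0.40 (SE). Cyp51, Msmo1 and Nsdhl followed at −2.17, −2.02 and −1.96, each with adjusted p = 0.0707. For the ha/ha effect the median difference was −0.36 against −0.003 over all genes, and it lay between −0.52 and −0.18 with each mouse left out. There 9 members had an unadjusted p under 0.05, beside 13.7% of all genes. No member passed after adjustment there, when 0.0711% of genes did. Aacs differed most in the positive direction, at 1.15 ± 0.37 with adjusted p = 0.229, with a positive log2 fold change in ha/ha livers and a negative one in ha/ha hearts.

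Other genes of sterol and lipid metabolism were counted in lists, and none passed limma after adjustment in any liver comparison. Their counts at an unadjusted p under 0.05 stand beside 9.74% of all genes in ep/ep livers and 14.1% in ha/ha livers. Of 9 further sterol synthesis genes, 3 had an unadjusted p under 0.05 in ep/ep livers, all lower, and the list median was −0.07. Erg28, a scaffold for the demethylation enzymes, was 2941.9 to 6033.8 in +/+ livers and 2379.3 to 2601.2 in ep/ep. Of 13 further genes described as SREBP2 targets, 6 were lower and none higher at that level in ep/ep, with a median of −0.25. Rdh11, a retinol dehydrogenase, was 3340.0 to 3865.2 in +/+ and 1376.1 to 1786.6 in ep/ep, a log2 fold change of −1.23 ± 0.22 with adjusted p = 0.214. Fabp5, a fatty acid binding protein, was 562.8 to 6514.8 in +/+, with its highest value in mouse 3, and 279.7 to 446.1 in ep/ep.

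Fatty acid synthesis genes include targets of the related factor SREBP1. In ep/ep livers 9 of 13 had a positive log2 fold change, with a median of 0.51 and 2 at an unadjusted p under 0.05, and in ha/ha livers all 13 were positive, with a median of 0.53 and 4 at that level. Srebf1, which encodes SREBP1, had 10561.6, 6904.0 and 6227.0 counts in +/+, 25507.8, 13389.1 and 15984.4 in ep/ep, and 9234.5, 14234.2 and 10180.0 in ha/ha. Every ep/ep liver was above every +/+ liver, with a log2 fold change of 1.20 ± 0.28 and adjusted p = 0.334. Of 13 LXR targets, Mylip among them, 3 were higher and 2 lower in ep/ep at an unadjusted p under 0.05, with a median of 0.15. Abcg5, a sterol exporter, was 2258.3 to 3397.4 in +/+ and 4605.4 to 16688.5 in ep/ep. Cyp7a1, the rate-limiting enzyme of bile acid synthesis, was 1593.9 to 4492.3 in +/+, 473.4 to 2630.0 in ep/ep and 402.2 to 758.0 in ha/ha. The medians in ep/ep livers were 0.14 for 9 SREBP processing genes, 0.07 for 13 genes of sterol movement and storage, and −0.03 for 13 users of isoprenoids.

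The 5 other genes whose log2 counts over the 9 livers followed the members most closely were taken from 11275 genes with a mean of at least 100. They were Fam129b, Aldoc, Mmab, Lrrc39 and Bak1, with Pearson correlations of 0.965, 0.962, 0.959, 0.949 and 0.946 with the mean standardized profile of the members. The 9 points share the 3 genotypes and their libraries, so these values are a description. The log2 fold changes in ep/ep livers were −0.95, −1.47, −0.78, −1.50 and −0.41 in the same order, with adjusted p from 0.277 to 0.411.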

How the data were processed

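RNA from hearts and livers was sequenced by the authors as 54 libraries, 3 technical libraries for each of 18 tissue samples. The authors trimmed reads with Trim Galore 0.4.1 and cutadapt 1.18, quantified genes with Salmon 1.1.0 on GRCm38.p6 with strand taken into account, left out mitochondrial transcripts and normalized each tissue with DESeq2. The deposited normalized counts were used. Each column is named as a pool and was taken, from its sample number, as the technical libraries of 1 mouse. The authors' methods speak of pooling independent replicates and do not spell this out, so n = 3 rests on this reading. In each column 100.0% of low values were whole multiples of 1 step (tolerance 0.06 normalized counts), which gave the reads. Replicates are mice, 3 a group. The 4 deposited tables of fold changes and p-values were not used.

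Genes with a mean of at least 10 were tested with limma 3.58.1 in R 4.3.3 on log2(normalized count + 1), with an intensity trend, all genotypes of a tissue together, and Benjamini-Hochberg adjustment over all genes tested at 0.05. Fold changes on this scale understate those of low genes. The step was tested on simulated data. A single gene compared 3 against 3 by exact permutation could not go below p = 0.1. All members are named; genes of other lists are named only as the up to 2 largest differences in ep/ep livers. Members, lists, motifs and tests were chosen with earlier results of these data known. Alternatives were pseudocounts of 0.1 and 8, no filter or a mean of at least 50, quantile normalization, only the 2 genotypes compared, robust variance, array weights, a replicate block, each mouse left out and, added after seeing the data, limma-voom on recovered reads.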

Additional observations from a re-analysis of the deposited data

Results flagged for a closer look

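For 2 members every mutant sample lay on one side of every +/+ sample in the liver and on the other side in the heart. Among all genes tested, 6.28% were lower in every ep/ep liver and 4.4% higher in every ep/ep heart. For ha/ha these shares were 9.81% and 11.1%. The share of genes with both at once was not computed, so the count of 2 is a description. Every ep/ep liver was below every +/+ liver for Stard4 while every ep/ep heart was above every +/+ heart, and the liver-minus-heart difference of the ep/ep effect was −0.95 on the log2 scale (SE 0.18, limma, adjusted p = 0.149). Under the other settings its adjusted p lay between 0.0362, with array weights, and 0.566. Stard4 was also higher in every ha/ha heart than in any +/+ heart, at 346.1, 296.0 and 294.6 counts. Its ha/ha liver values overlapped +/+. For Mvd, every ha/ha liver was below every +/+ liver while every ha/ha heart was above every +/+ heart, at 158.3, 196.3 and 161.8 normalized counts against 144.7, 157.5 and 125.1. The difference of the ha/ha effect was −1.20 (SE 0.42, limma, adjusted p = 0.250), and its adjusted p ranged from 0.134 to 0.458. Neither passed the threshold of 0.05.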

How the results depend on the processing

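With no member past the adjusted threshold in the reported fits, the alternatives changed 5 of the 8 counts of members called. In ep/ep livers against +/+ the count was 1 with no filter (0.00755% of all genes passed) and ranged from 0 to 10 when each mouse was left out, with the highest without +/+ mouse 1. In hearts, array weights gave 13 members for ha/ha against +/+, when 34.7% of all genes passed, and 8 for ha/ha against ep/ep, when 39.3% passed, and leaving out each mouse gave 0 to 11 and 0 to 7, the highest without ha/ha mouse 2, when 27% and 23.2% passed. For the difference between tissues array weights gave 7 members for the ep/ep effect (0.171% of all genes) and 6 for the ha/ha effect (14.6%), and leaving out each mouse gave 0 to 6 (highest without +/+ liver 3, when 0.682% of all genes passed) and 0 to 5 (highest without ha/ha heart 2, when 12.1% passed). The counts in ha/ha livers, against +/+ and against ep/ep, and in ep/ep hearts stayed at 0 under every alternative run. The medians of the members moved by less than 1 SD under every alternative. That SD is of a typical single member among mice, not of a median. In ha/ha livers the median still went from −0.50 to −0.27 without +/+ mouse 3. Among the members with an unadjusted p under 0.05 in ep/ep or ha/ha livers none of 576 refits turned its direction. This was largely fixed in advance. These members were picked by p from the same data, and several settings leave the fold change as it is. The 20 in ep/ep livers did not overlap +/+, so leaving out a mouse could not turn them.

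The mice were matched for litter, but the labels do not say that a shared number marks a litter. Deviations of mice with the same number correlated from −0.231 to 0.578, and not above 0.1 in every pair. With a replicate block 7 members passed in ep/ep livers, when 0.0588% of all genes did, and Idi1, Fdps and Msmo1 for the difference of the ep/ep effect between tissues, when 0.0213% did (number as block within each tissue, 3 members). edgeR and DESeq2, planned as alternatives, were not run here, and limma-voom on recovered reads was run in their place. The cause of these changes was not tested.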
